A study of Rattus norvegicus with 8 samples.

Results

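The genes described here encode the enzymes that write, erase and reshape chromatin marks in the rat hippocampus: histone deacetylases, sirtuins, acetyltransferases, DNA methyltransferases, TET enzymes, histone methyltransferases and demethylases, and the ATPases that move nucleosomes. The list holds 38 genes, chosen by name, and each was looked up among the gene names of the array's probes, current aliases included. Probes were assigned to 36 of the 38 genes (48 probes) by name, alias or accession, Hdac9 by accession alone since its probe carries a provisional name, and 32 of the 38 had a probe that passed the filter on dim signal, out of 18803 features tested in all. The samples were hippocampi of male Sprague Dawley rats aged 3 months. The vehicle group (4 animals) and the Y+I group (4 animals), which received yohimbine and imipramine together, were each treated for 7 days, and the tissue is labelled as 2 h after treatment. The labels give neither the doses nor the composition of the vehicle, and the combination was set against vehicle only, so the part of each drug cannot be told apart. The RNA of every animal went onto a separate 1-colour array, and n = 4 for each group mean below.

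Acetyl groups on histone tails loosen the contact of DNA with the nucleosome. Acetyltransferases such as Crebbp and Ep300 add them, and deacetylases remove them. Of the deacetylase family, the class IIa members Hdac4, Hdac5, Hdac7 and Hdac9 move between cytoplasm and nucleus with neuronal activity. Methyl groups are placed on DNA by the Dnmt enzymes and oxidised by the Tet enzymes, while on histones they mark active or silent genes depending on the residue. In rodents, Hdac5 in the hippocampus has been studied as a mediator of the response to long treatment with imipramine, a tricyclic antidepressant that blocks the reuptake of noradrenaline and serotonin. Yohimbine blocks alpha2-adrenoceptors, which restrain the release of noradrenaline.

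The array reads each gene through oligonucleotides of 60 bases, printed here 5′ to 3′ for the members where the sequence bears on what a value means. The probes of Hdac5 and Hdac6 are shown because both genes stood among the 4 members with the lowest p-values. By their coordinates in the files, on rat build rn4, both were placed across a gap in the genome: the Hdac5 probe covered a span of 469 bases on the minus strand (chr10:91267403-91267871) and the Hdac6 probe a span of 178 bases on the plus strand (chrX:26605809-26605986). A probe placed this way joins exons and matches spliced RNA. No base is marked in this pair.
Hdac5: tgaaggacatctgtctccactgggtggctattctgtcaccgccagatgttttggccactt
Hdac6: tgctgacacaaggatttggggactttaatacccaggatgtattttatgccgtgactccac
The paralogous acetyltransferases Kat2a and Kat2b are shown because their probes could be mistaken for each other. Capitals mark the bases that the Kat2a probe (chr10:89642508-89642567, minus strand) and the upstream Kat2b probe (chr9:884757-884816, minus strand) have in common when laid side by side without gaps, which were 43 of 60.
Kat2a: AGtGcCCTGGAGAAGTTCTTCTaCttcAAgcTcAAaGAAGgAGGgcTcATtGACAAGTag
Kat2b: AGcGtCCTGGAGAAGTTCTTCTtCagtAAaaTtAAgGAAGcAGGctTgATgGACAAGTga
For Tet2, 2 probes on the minus strand of chromosome 2 overlapped (chr2:231016073-231016132 and chr2:231016042-231016101). Capitals mark the 29 bases that ended the upstream probe and began the downstream one. These 2 probes are therefore not independent readings of the gene.
Tet2 upstream: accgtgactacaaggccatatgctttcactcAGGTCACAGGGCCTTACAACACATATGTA
Tet2 downstream: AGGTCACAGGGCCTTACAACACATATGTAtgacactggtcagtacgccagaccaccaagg

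No enzyme gene of the list passed the threshold. In the limma fit over all features, 0 of the 32 measured members had an adjusted p under 0.05, while 2.33% of all 18803 features did (439 features, 139 higher in Y+I and 300 lower). That background itself moved with the processing: 401 features were higher and 203 lower after normexp background correction, 3361 and 526 without a filter on background, and 33 and 87 without vehicle animal 4. Without adjustment, 4 of the 32 had a limma p under 0.05, all with lower signal in Y+I, against 9.16% of all features lower and 6.46% higher by the same rule. These were the deacetylases Hdac7, Hdac5, Hdac11 and Hdac6. The number with lower signal was 2 without Y+I animal 4 and 6 without Y+I animal 1, and Hdac6 was among them in 3 of the 8 fits that left out an animal. No share of all features by that rule is given for these fits. Hdac7, the member with the smallest p, ranked 1436 among all features. The fold changes of the 32 members ran from -0.59 to 0.34 on the log2 scale, with 19 below 0 and 13 above. Their median was -0.03, beside -0.02 over all features.

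The intervals show what size of change the spread between animals leaves room for, under the main processing. They do not cover the choice of background correction or the arrays' rows on the slide, which went with the treatment. The Suv39h1 interval, -0.48 to 0.05, did not hold its value of 0.31 after normexp correction. The 95% interval of the fold change lay within 1.5-fold in both directions for 20 of the 32 members (62.5%), and within 2-fold for 29 (90.6%). The shares over all features were 61.5% and 88.6%. Hdac5, Hdac9 and Sirt2 were the 3 members whose interval reached past 2-fold. Precision is limited by the number of arrays, and the absence of calls does not show that the genes were alike in the 2 groups.

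**Figure D1:**
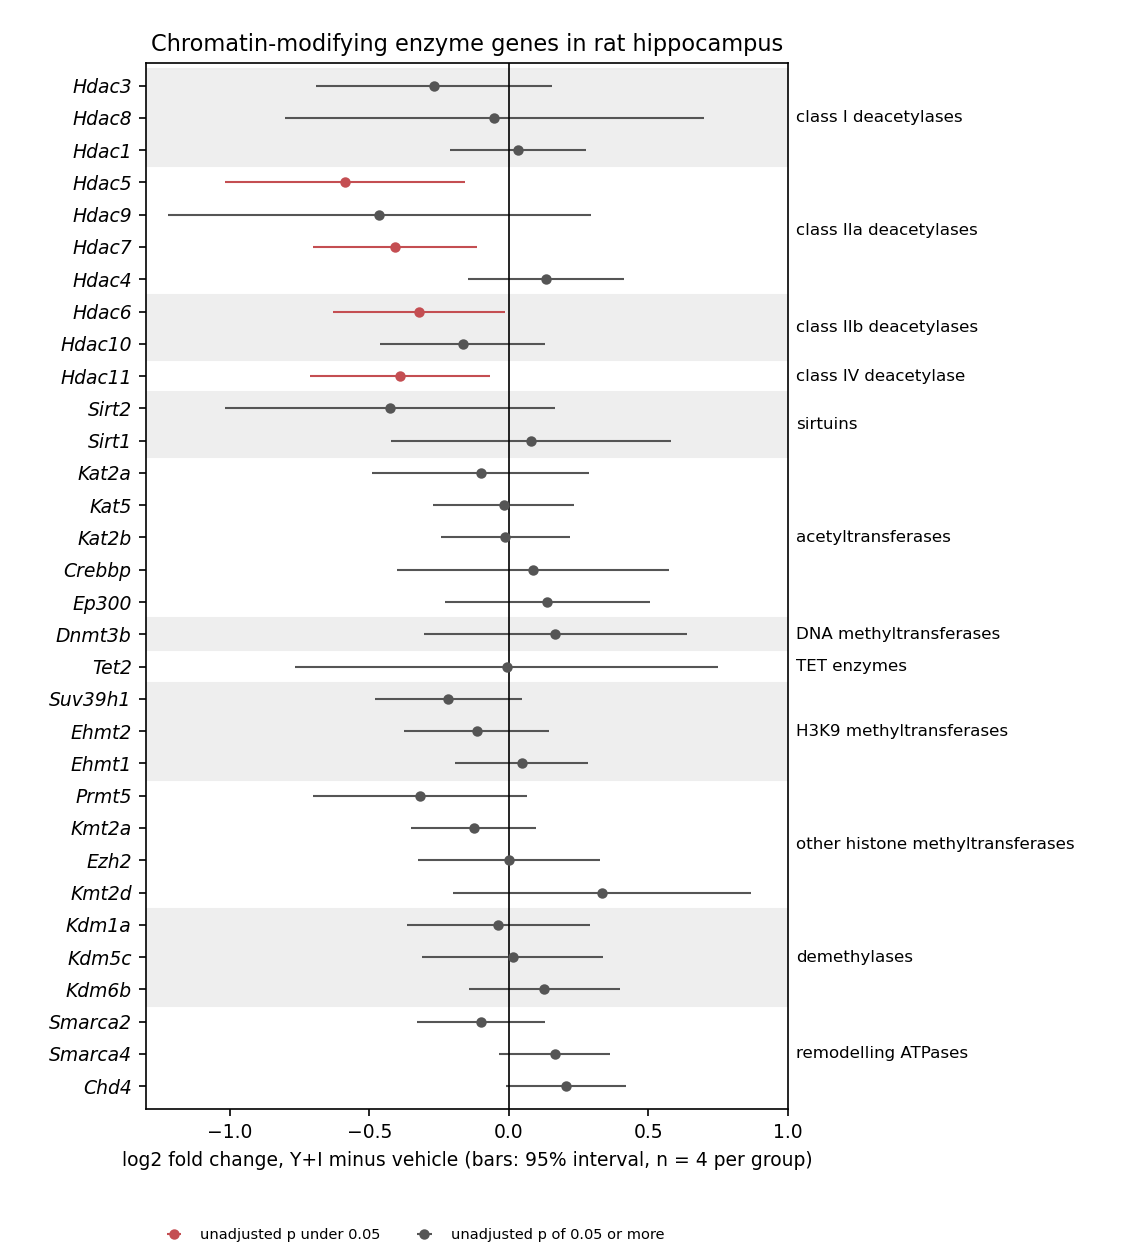
Fold change of each of the 32 measured members (x axis, log2 of Y+I over vehicle, points) with its 95% interval (bars, n = 4 animals per group), grouped by enzyme class. The 4 members in red had an unadjusted limma p under 0.05, and all 4 are deacetylases with lower signal in Y+I; no member passed the adjusted threshold.

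The class IIa deacetylases held the member with the lowest fold change of the list. Hdac5 acts in repressor complexes that bind Mef2 factors. Its normalised log2 signal, on which 0 is the array's 75th percentile, was 1.06, 0.98, 0.61 and 0.93 in vehicle animals 1 to 4 and 0.63, -0.11, 0.62 and 0.09 in Y+I animals 1 to 4. Y+I animals 2 and 4 were clearly lowest, whereas Y+I animals 1 and 3 lay just above vehicle animal 3, so the groups overlapped. The mean was 0.90 ± 0.20 (SD) in vehicle and 0.31 ± 0.38 in Y+I, a log2 fold change of -0.59 ± 0.19 (SE), with a limma adjusted p of 0.167.

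Hdac7, another class IIa enzyme, showed the most even difference among the 4. Its signal was -1.53, -1.79, -1.54 and -1.45 in vehicle animals 1 to 4, and -1.94, -2.25, -2.00 and -1.75 in the Y+I animals. Only Y+I animal 4 and vehicle animal 2 crossed. The mean went from -1.58 ± 0.15 (SD) to -1.99 ± 0.21, a log2 fold change of -0.41 ± 0.13 (SE), with a limma adjusted p of 0.163. Hdac9 had a log2 fold change of -0.46 ± 0.33 (SE), from a probe well above background on 1 of 4 Y+I arrays. Hdac4, the remaining class IIa enzyme, had one of 0.13 ± 0.12.

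Hdac11 is the single class IV deacetylase, known in brain for its expression in oligodendrocytes and neurons. Its signal was 4.47, 4.32, 4.05 and 4.11 in vehicle animals 1 to 4 and 4.07, 3.85, 3.93 and 3.56 in Y+I animals 1 to 4. Y+I animal 1 lay within the vehicle range, and the other 3 lay below it. The mean was 4.24 ± 0.19 (SD) in vehicle and 3.85 ± 0.22 in Y+I, a log2 fold change of -0.39 ± 0.14 (SE), with a limma adjusted p of 0.220.

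Hdac6 is a class IIb enzyme that acts mostly in the cytoplasm, where it deacetylates tubulin. Its signal was 0.23, 0.37, 0.38 and 0.41 across vehicle animals 1 to 4, and 0.30, -0.25, 0.18 and -0.13 across the Y+I animals. Y+I animal 1 lay inside the vehicle range, animal 3 just under it, and animals 2 and 4 well below. The mean was 0.35 ± 0.08 (SD) in vehicle and 0.03 ± 0.26 in Y+I, a log2 fold change of -0.32 ± 0.14 (SE), with a limma adjusted p of 0.296. Hdac10, the other class IIb enzyme, had a log2 fold change of -0.17 ± 0.13 (SE).

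**Figure D2:**
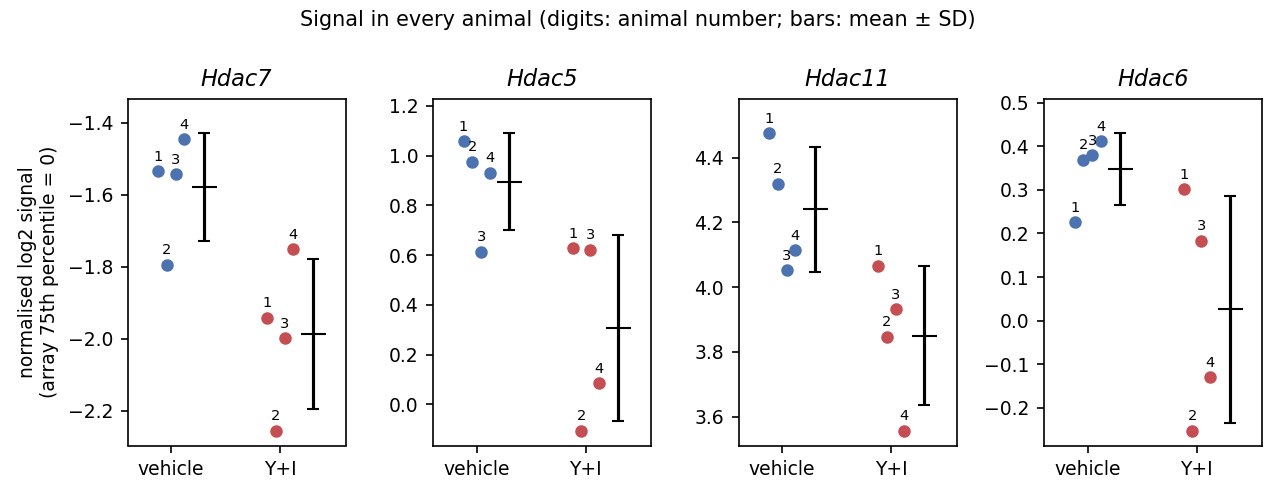
Normalised log2 signal (y axis, 0 is the array's 75th percentile) of Hdac7, Hdac5, Hdac11 and Hdac6 in each vehicle (blue) and Y+I (red) animal, with the animal's number; black bars are mean ± SD, n = 4. The groups overlap in all 4 genes, and Y+I animals 2 and 4 are the 2 lowest in Hdac5, Hdac11 and Hdac6 but not in Hdac7.

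Across classes IIa, IIb and IV, 7 of 7 genes were measured, 6 had a fold change below 0 (54.1% of all features did), and the median log2 fold change was -0.39. Hdac9 entered through the vehicle group only. Where all 8 arrays had to be well above background, 5 of 6 genes were below 0, with a median of -0.355. With class I included, 10 of 11 deacetylases were measured, 8 were below 0, and the median was -0.29. After normexp correction 5 of the 7 were below 0, Hdac9 going from -0.46 to 0.13, with a median of -0.28. None of the 7 passed the adjusted threshold. The classes follow the known grouping of the enzymes, but classes IIa, IIb and IV were pooled without class I, with earlier results of these data known. The count is therefore a description. Class I had a median of -0.05 over 3 of 4 genes. Hdac3 was at -0.27 ± 0.19 (SE), Hdac8 at -0.05 ± 0.33 and Hdac1 at 0.03 ± 0.11, and none of them had an unadjusted limma p under 0.05. Hdac2 was not well above background on any array of either group, and no fold change is given. Of the sirtuins, the NAD-dependent deacetylases, Sirt2, abundant in myelinating cells, had a log2 fold change of -0.43 ± 0.26 (SE) and Sirt1 one of 0.08 ± 0.22.

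By the probe used for each gene, the acetyltransferases lay around 0. All 5 were measured, 3 were below 0 and 2 above, and the 95% interval was within 1.5-fold in all 5. Ep300 and Crebbp, the paired coactivators of CREB, had log2 fold changes of 0.14 ± 0.16 (SE) and 0.09 ± 0.22. Kat2a, Kat2b and Kat5 had -0.10 ± 0.17, -0.01 ± 0.10 and -0.02 ± 0.11. The Crebbp probe was well above background on 1 of 4 Y+I arrays, and its value was 0.33 after normexp correction. The other probe of Kat2b was at -0.38 and that of Kat5 at -0.18, both described below.

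For the enzymes that act on DNA methylation, little could be measured. Dnmt1, which copies methylation at replication, was well above background on 2 of 4 vehicle and 0 of 4 Y+I arrays. Dnmt3a, which places new methyl groups and is the main such enzyme of adult neurons, was so on 3 of 4 vehicle and 0 of 4 Y+I arrays. Tet1 was so on 1 of 4 vehicle and 0 of 4 Y+I arrays, and no probe carried the name Tet3. The share of all spots well above background was also lower in Y+I, at 64.4% to 74.8% against 76.4% to 79.7% in vehicle, and whether that share sets these 3 counts was not tested. Dnmt3b, the paralogue of Dnmt3a, had a log2 fold change of 0.17 ± 0.21 (SE). Tet2 had one of -0.01 ± 0.33.

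Histone methyltransferases did not form one direction. Among the enzymes that methylate lysine 9 of histone H3, a mark of silent chromatin, Suv39h1 was at -0.22 ± 0.12 (SE), Ehmt2 at -0.12 ± 0.11 and Ehmt1 at 0.05 ± 0.10. Setdb1, of the same class, was named only in the description of a probe and is not counted among the 32. That probe had a log2 fold change of -0.05 ± 0.19. Prmt5, which methylates arginine, was at -0.32 ± 0.17, and Kmt2d and Kmt2a, which methylate lysine 4 of histone H3 at enhancers and promoters, were at 0.34 ± 0.24 and -0.13 ± 0.10. Ezh2, the catalytic subunit of the Polycomb complex PRC2, was at 0.00 ± 0.14. The demethylases Kdm6b, Kdm5c and Kdm1a were at 0.13 ± 0.12, 0.01 ± 0.14 and -0.04 ± 0.14.

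Of the 32 members, 7 had at least 1 Y+I array where their probe was not well above background: Suv39h1, Kmt2d, Hdac9, Dnmt3b, Crebbp, Sirt1 and Ezh2. These entered the test through the vehicle group, and their fold changes are open to error near background. All 7 were above 0 after normexp correction. Suv39h1 went from -0.22 to 0.31 (limma adjusted p = 0.111) and Hdac9 from -0.46 to 0.13, which turned their sign. Dnmt3b went to 0.35, Crebbp to 0.33, Ezh2 to 0.29 and Sirt1 to 0.28, and Kmt2d stayed at 0.34.

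The ATPases of nucleosome remodelling held the 2 members whose groups did not overlap, named here after their values were seen. Chd4, the motor of the NuRD complex, had a signal of 2.71, 2.52, 2.71 and 2.66 in vehicle animals 1 to 4 and 2.80, 2.75, 2.88 and 2.99 in Y+I animals 1 to 4. Smarca4, a motor of the SWI/SNF complex also called BRG1, was at 4.15, 4.16, 4.04 and 4.08 in vehicle and 4.33, 4.23, 4.17 and 4.35 in Y+I. By the brighter probe of each gene, every Y+I animal lay above every vehicle animal, by small steps. The log2 fold changes by that probe were 0.21 ± 0.10 (SE; limma adjusted p = 0.344) for Chd4 and 0.17 ± 0.09 (adjusted p = 0.415) for Smarca4. The other probe of each gene overlapped between groups. Smarca2, the alternative SWI/SNF motor, was at -0.10 ± 0.10. Groups that do not overlap, with Y+I higher, were found for 5.04% of all features and 2 of the 32 members. With Y+I lower they were found for 6.65% of all features and 0 of the 32.

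The spread within the Y+I group was wider than in vehicle, in the list as over all features. The SD between animals was larger in Y+I than in vehicle for 30 of the 32 members (93.8%), and for 77.8% of all features. It was so for 81 of 96 related chromatin genes, described below (84.4%). Over the members, the median SD in log2 units was 0.11 for vehicle and 0.26 for Y+I. These medians were 0.104 and 0.195 over the related genes, and 0.13 and 0.24 over all features. In 15 of the 32 members (46.9%), Y+I animals 2 and 4 both lay below Y+I animals 1 and 3, and in 4 (12.5%) both lay above. The same patterns held for 21.7% and 28.4% of all features. This grouping of animals was seen in the data and has no test.

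The 15 genes ran across classes: Hdac3, Hdac5, Hdac6, Hdac8, Hdac10, Hdac11, Sirt2, Prmt5, Suv39h1, Ehmt2, Kat2a, Kdm1a, Kdm6b, Tet2 and Ezh2. Hdac8 showed it most, with a signal of -2.23, -3.39, -1.87 and -3.27 in Y+I animals 1 to 4, whereas the vehicle animals kept between -2.90 and -2.47. The 4 genes with animals 2 and 4 higher were Ep300, Ehmt1, Sirt1 and Kat5. Ep300 was at 0.24, 0.90, 0.29 and 0.81 in Y+I animals 1 to 4, around a vehicle mean of 0.42 ± 0.05 (SD). The mean of animals 2 and 4 minus that of 1 and 3 ran from -1.29 in Hdac8 to 0.59 in Ep300.

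**Figure D3:**
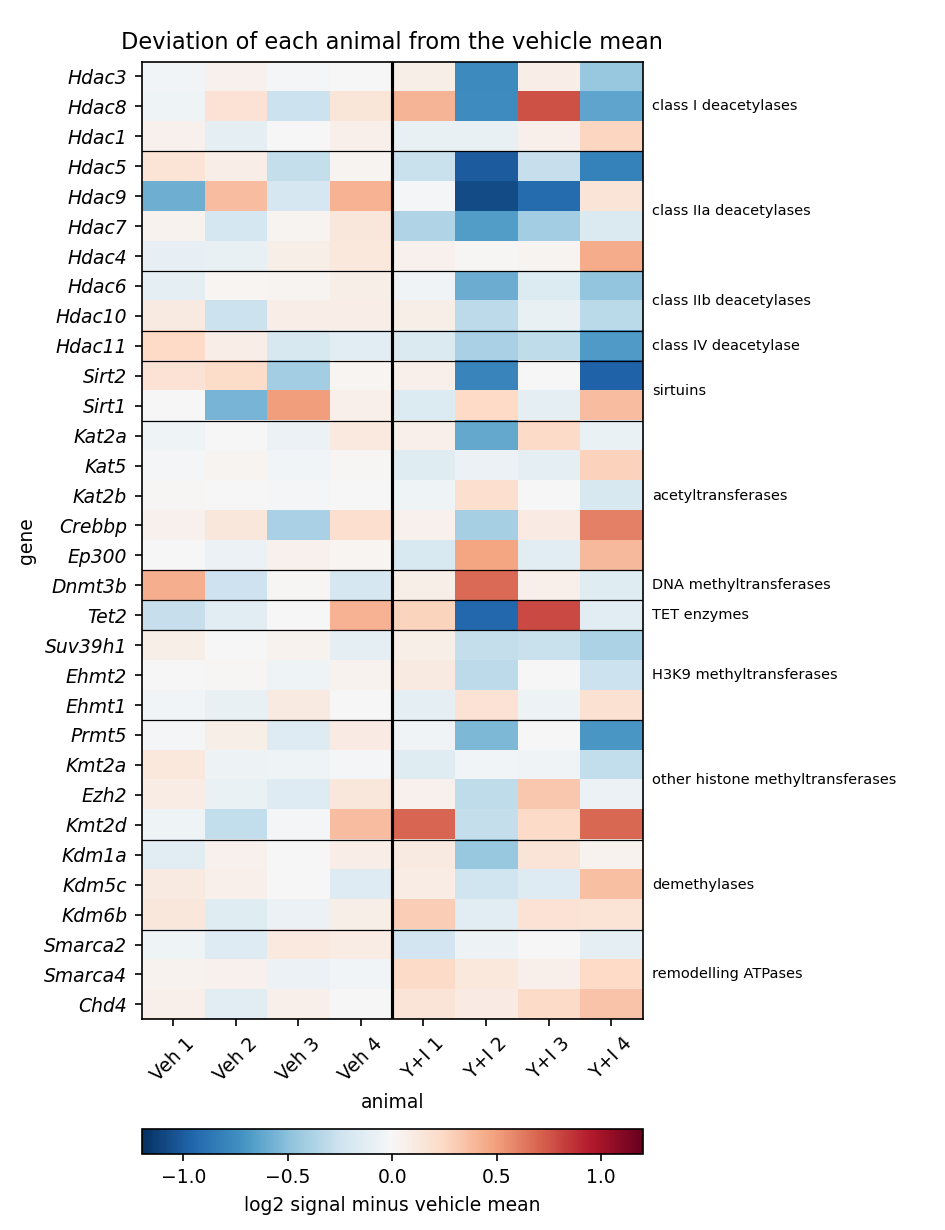
Deviation of each animal (columns) from the vehicle mean of each of the 32 members (rows, by enzyme class), as log2 signal from blue (lower) to red (higher). The vehicle columns are pale, with a median SD of 0.11, and the Y+I columns vary more, with animals 2 and 4 both lower than animals 1 and 3 in 15 of the 32 members.

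Some properties of the arrays differed between the Y+I animals, and the 75th percentile followed the same pairs. The 75th percentile of the processed signal was 1408 and 1045 scanner units on the arrays of Y+I animals 2 and 4, against 1883 and 1971 for Y+I animals 1 and 3 and 1939 to 2106 in vehicle. As a sign of RNA quality, the difference between the most 3′ and the most 5′ probe of a gene was taken for 1997 genes with kept probes at least 300 bases apart. Relative to the vehicle mean, its median was 0.27 on the log2 scale in Y+I animal 2 and between -0.10 and 0.04 in the other 7 animals, Y+I animal 4 included. In the 6 members with such probes, Hdac1, Hdac7, Kat2b, Kat5, Smarca4 and Chd4, the median was 0.29 in Y+I animal 2, 0.40 in animal 4, 0.01 in animal 1 and 0.04 in animal 3. Over these 6 members the median thus followed the same pairs, unlike over the 1997 genes. The share of spots well above background was lowest in Y+I animals 2 and 3, at 65.3% and 64.4%. The part of these properties in the members' values was not tested.

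With Y+I animals 2 and 4 left out, an alternative added after the data were seen, 0 members passed the adjusted threshold. Hdac7 kept a log2 fold change of -0.39 (limma adjusted p = 0.151), while Hdac5 was at -0.27 (adjusted p = 0.320), Hdac11 at -0.24 (adjusted p = 0.378) and Hdac6 at -0.10 (adjusted p = 0.552). Prmt5 went from -0.32 to -0.02, and Sirt2 and Hdac3 went to 0.03 and 0.07. Hdac8 went to 0.59 (limma adjusted p = 0.140). Since animals 2 and 4 were the lowest of the group in most of these genes, their omission had to raise the Y+I mean there, and the values are a description. Without Y+I animals 2 and 3, whose arrays had the lowest share of spots above background, Hdac7 was at -0.27 (limma adjusted p = 0.356), Hdac5 at -0.54, Hdac11 at -0.43, Hdac6 at -0.26 and Prmt5 at -0.37. Hdac9 then went to 0.07 and Kmt2d to 0.70 (limma adjusted p = 0.146), again with 0 members past the threshold.

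**Figure D4:**
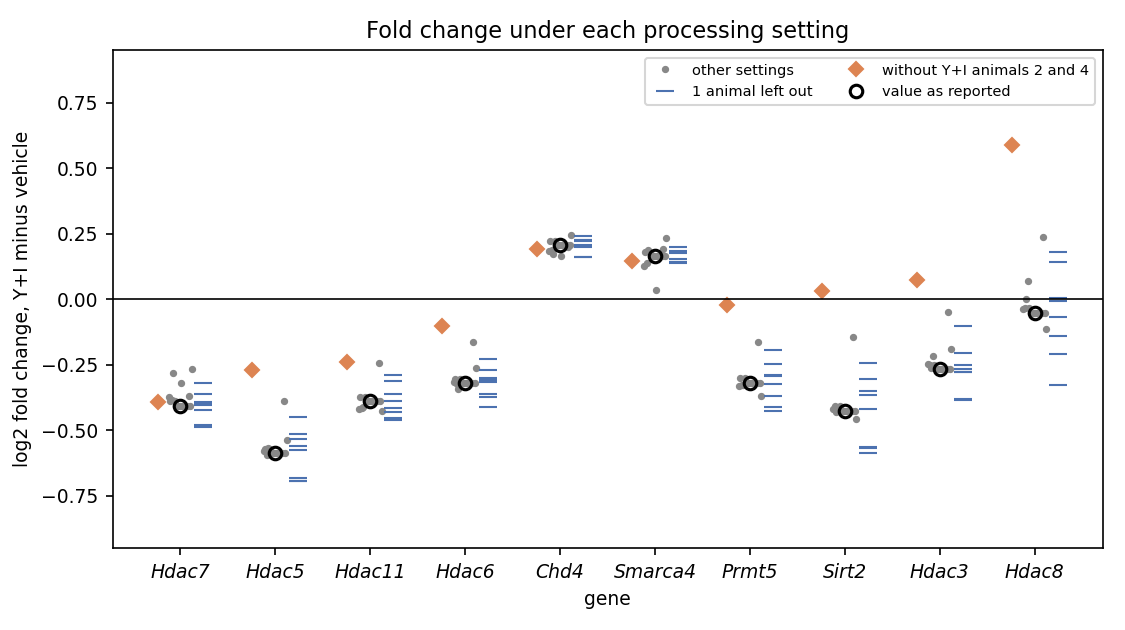
Log2 fold change of 10 members (y axis) as reported (open circles), with 1 animal left out (blue dashes), without Y+I animals 2 and 4 (orange diamonds) and under the other processing settings (grey dots). Hdac7, Chd4 and Smarca4 stay close to the reported value without animals 2 and 4, whereas Hdac5 moves from -0.59 to -0.27 and Hdac8 from -0.05 to 0.59.

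Several probes read the same member in 7 genes, 16 probes in all. For Hdac7 all 3 probes were lower in Y+I, at -0.30, -0.25 and -0.41 from 5′ to 3′. The middle one did not overlap between groups, its highest Y+I animal lying just under its lowest vehicle animal. For Kat5, which acetylates histones at DNA breaks and promoters, the downstream probe was at -0.02 ± 0.11 (SE) but the upstream one at -0.18 ± 0.08. That upstream probe had 0.96, 0.99, 0.95 and 1.02 in vehicle and 0.85, 0.76, 0.80 and 0.79 in Y+I animals 1 to 4, without overlap (limma adjusted p = 0.338 with each probe as its own feature). The upstream Kat2b probe was at -0.38 ± 0.18, and was well above background on 4 of 4 vehicle and 0 of 4 Y+I arrays, while the downstream one was at -0.01 ± 0.10.

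Probes disagreed in sign in 2 of the 7 genes. Smarca4 was at 0.17 ± 0.09 (SE) with its downstream probe and at -0.09 ± 0.13 with its upstream probe, so the direction given above rests on the brighter probe. Hdac1 had -0.21, 0.35 and 0.03 from 5′ to 3′. Its middle value came mostly from Y+I animal 3, at -2.52, where the vehicle mean was -3.94. Both Chd4 probes were above 0, at 0.12 and 0.21, but the groups overlapped at the probe with 0.12. That probe had 0.35, 0.28, 0.31 and 0.45 in vehicle and 0.63, 0.05, 0.765 and 0.44 in Y+I animals 1 to 4. The overlapping Tet2 probes gave -0.01 and 0.00, and they moved in parallel between animals: Y+I animal 2 lay 0.95 and 0.91 below the vehicle mean, and Y+I animal 3 lay 0.79 and 0.82 above it. Counting each of the 41 kept probes of the members as a feature, 0 passed the adjusted threshold and 4 had an unadjusted limma p under 0.05. Groups did not overlap in 2 of the 41 with Y+I lower and in 2 with Y+I higher. No share over all probes is given for that fit, so these counts are a description.

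**Figure D5:**
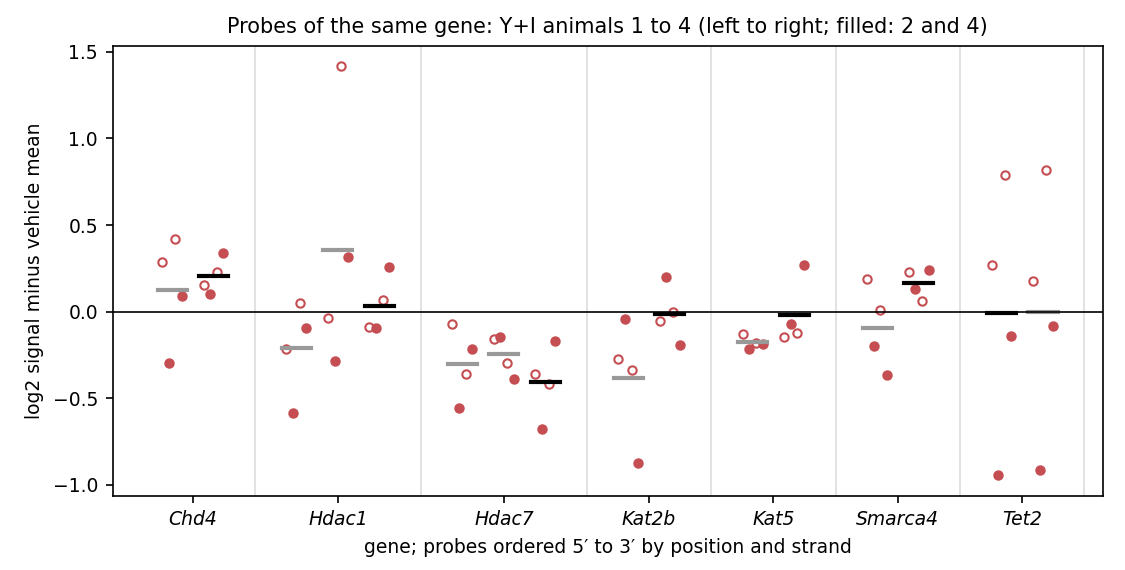
Probes of the 7 members with several kept probes, ordered 5′ to 3′ (x axis), with each Y+I animal's log2 signal minus the vehicle mean of that probe (y axis; animals 1 to 4 from left to right, animals 2 and 4 filled) and the mean (line, black for the probe used for the gene). The 3 Hdac7 probes lie below 0 together, the 2 Tet2 probes share the wide spread of the Y+I animals, and the probes of Smarca4 and of Hdac1 have means on both sides of 0.

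The other genes of the same machinery, such as further family members and subunits of the complexes, gave 1 call. Of 120 such genes listed, 96 were measured, 1 was higher at an adjusted p under 0.05 and 0 were lower, with a median log2 fold change of 0.01. At an unadjusted limma p under 0.05, 9 of the 96 were higher and 2 lower. By the same rule 6.46% of all features were higher and 9.16% lower. With both directions joined, the shares were 11.5% of the 96 and 15.6% of all features. The gene that passed was Smarcd2, an accessory subunit of the SWI/SNF complexes that Smarca4 and Smarca2 drive. Its signal was 2.04, 1.95, 1.94 and 1.87 in vehicle animals 1 to 4 and 2.86, 2.32, 2.65 and 2.75 in Y+I animals 1 to 4, with no overlap. Smarcd2 rose 1.62-fold, a log2 fold change of 0.69 ± 0.13 (SE), with a limma adjusted p of 0.0300. That call was lost when any animal other than Y+I animal 2 was left out, with adjusted p-values between 0.0564 and 0.108, while its log2 fold change lay between 0.62 and 0.80 in all 8 such fits. The next genes by p were Kdm3a, an H3K9 demethylase, at 0.40 ± 0.11 (limma adjusted p = 0.122), Gadd45a, a stress-induced gene linked to DNA demethylation, at 0.40 ± 0.12 (adjusted p = 0.143), and Rcor2, a CoREST subunit, at 0.51 ± 0.18 (adjusted p = 0.208).

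The tissue labels were set against marker genes. Hippocampal neuron markers were measured for 9 of 10 genes, 1 called higher, with a mean level of -1.51 to -1.39 in vehicle and -1.21 to -0.85 in Y+I. Markers of the neighbouring thalamus and habenula (8 of 9 measured, 1 called higher and 1 lower) stood at -1.80 to -1.40 and -2.10 to -1.94, those of striatum (6 of 6, 1 lower) at -3.24 to -2.70 and -3.79 to -3.53, and those of meninges and fibroblasts (8 of 8, 3 lower) at -1.54 to -1.39 and -2.17 to -1.91. Endothelial markers (8 of 8, 1 lower) stood at -1.32 to -1.21 and -1.74 to -1.40. The ranges of these 5 lists lay apart between the groups, while those of astrocyte, microglia, oligodendrocyte, choroid plexus, blood and dividing cell markers overlapped. Among those, the oligodendrocyte enzyme gene Aspa was called higher (0.72), and the red cell genes Hbb and Alas2 lower (-0.99 and -0.90), while the neutrophil genes S100a8 and S100a9 had log2 fold changes of 2.18 and 2.08 without passing, so the mean of the blood list joins opposite signs. Their part in the members' values was not tested, and fewer cells of a type cannot be told apart from less RNA per cell in such tissue. Vehicle arrays occupied row 1 of the single slide and Y+I arrays row 2, and the row and the treatment cannot be told apart.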

How the data were processed

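Cy3-labelled hippocampal RNA of 8 rats was hybridised to 1-colour Agilent rat arrays, per the labels' protocols. The deposited scanner files hold intensity values read with Agilent Feature Extraction 10.5.1.1, per the file headers, including a processed signal already corrected for background. The deposited value table gives each array in log2, with scale and centring not stated. Set against the scanner values its slope was close to 0.997 and its array medians ran from -3.51 to -3.35, and it served as an alternative only.

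The main values were log2 processed signal minus the array's 75th percentile over noncontrol spots. Outlier spots were set to missing, with spots of a probe averaged. A probe was kept where 50% or more of its spots were well above background on each of the 4 arrays of either group, with 3 values per group, and the brightest kept probe stood for a gene. Of 30367 probes, 18004 were named by accession, 2320 by symbol and 626 by synonym through RefSeq's table of GRCr8, 1999 kept the file's name and 7418 had none. Groups were compared with lmFit and eBayes (limma 3.58.1, R 4.3.3; two-sided, no covariate), with Benjamini-Hochberg adjustment over all 18803 features and a threshold of 0.05. The fit was also run on simulated data with the same SD in both groups. The spread in these data was wider in Y+I, so that run does not show how the fit performs here. Figures used matplotlib 3.10.9.

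Same-numbered animals did not deviate together, so numbers were not taken to pair animals. The members, the classes and their pooling, and the lists were chosen with earlier results of these data known. Members with an adjusted or unadjusted p under 0.05 were given in full and others by class. Of the related genes, those that passed were named, or the 4 with the smallest p where fewer did. Alternatives covered normalisation, background correction, the value table, filters, probe summary, an animal block, variance models, array weights and omitted animals.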

Additional observations from a re-analysis of the deposited data

Results flagged for a closer look

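Of 64 groups of 4 animals (32 members in each treatment), 3 held an animal far from the other 3, where chance gives about 1 in 20. Hdac10 was at -1.75 in vehicle animal 2, with the other vehicle animals between -1.42 and -1.38. Hdac4 was at -2.95 in Y+I animal 4, with the others between -3.39 and -3.35. Kat5 was at 3.46 in Y+I animal 4, with the others between 3.04 and 3.11. That animal's array had the lowest 75th percentile of signal, and its part in these values was not tested.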

How the results depend on the processing

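No member passed an adjusted p of 0.05 in any of 25 other fits (0 of 793 member values, lowest adjusted p 0.093 for Hdac5 without a background filter), or an adjusted p of 0.1 in the main values. The members' median log2 fold change, -0.03 as reported, ran from -0.12 to 0.00 with 1 animal left out. With the animal number as a replicate block it was -0.03, with 0 members called higher and 0 lower. The 4 low deacetylases kept their sign in all 25 fits, between -0.69 and -0.10 on the log2 scale. A sign change occurred in 70 of the 793 values, over 19 genes, none of them called on either side. Normexp background correction gave 6 members higher and 4 lower at an unadjusted limma p under 0.05, and moved the median of all features to 0.09. No share of all features under that p is given for that fit, so these counts are a description. The count of related chromatin genes called higher, 1 as reported, was 2 with cyclic loess (Smarcd2 and Gadd45a), 0 with the replicate block, 3 with array weights (Smarcd2, Kdm3a and Gadd45a) and 0 to 2 with 1 animal left out. The cause of these shifts was not tested.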
